A study of Mus musculus with 24 samples.

Results

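The mitochondrial ribosomal proteins were the protein-coding genes whose GENCODE mouse symbol begins with Mrpl or Mrps followed by a number. Of the 55487 genes listed for each library, 78 were members, and 77 of them passed the filter on low counts in both comparisons of photobiomodulation with control. By published assignments of the mammalian mitoribosome, 30 members encode large-subunit proteins with a bacterial homologue and 21 encode large-subunit proteins particular to mitochondria. Another 16 encode small-subunit proteins with a bacterial homologue and 10 encode small-subunit proteins particular to mitochondria. The remaining member, Mrps36, was named as a ribosomal protein and is now known as an adaptor subunit of the oxoglutarate dehydrogenase complex. Mrps18a and Mrps30 were placed with the large subunit, where their proteins sit despite the symbols. The members lay on 17 chromosomes, with 11 of them on chromosome 11. The annotation also lists 5 processed pseudogenes with a member's name (Mrpl23-ps1, Mrpl48-ps, Mrps36-ps1, Mrps36-ps2 and Mrps36-ps3), which were not members.

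The mitoribosome sits at the inner mitochondrial membrane and translates the few proteins that mitochondrial DNA encodes, all of them subunits of the respiratory chain and ATP synthase. Its RNAs come from mitochondrial DNA, whereas its proteins are encoded in the nucleus, made in the cytosol and imported, so that assembly needs the output of both genomes. Skeletal muscle depends on this machinery for oxidative capacity, and the proposed light acceptor of red and near-infrared light, cytochrome c oxidase, has core subunits made on it.

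The study asked how photobiomodulation (PBMT), the exposure of tissue to low-intensity light, changes the muscle transcriptome at rest and after exhausting exercise. RNA sequencing was done on the left tibialis anterior, a hindlimb muscle, of 24 male wild-type C57BL/6J mice aged 5 to 7 weeks, with a single mouse per library and 6 mice in each of 4 groups. PBMT mice received light of 830 nm at 25 mW/cm2 for 20 min, to a fluence of 30 J/cm2, and their muscle was taken 24 h later. Control mice were shaved and anesthetized for 20 min without light. In the sedentary arm the mice did not run, and in the fatigued arm the muscle was dissected directly after a treadmill run to exhaustion. Sedentary and fatigued libraries were sequenced as separate projects, so exercise and sequencing project cannot be told apart. Total counts per library were 43271093 to 46904076 in sedentary controls and 46327516 to 52775844 in sedentary PBMT mice, a difference with p = 0.00433 (exact permutation test, two-sided, n = 6 and 6). They were 56792327 to 68726155 in fatigued controls and 53122528 to 68566029 in fatigued PBMT mice (p = 0.357, exact permutation test, two-sided, n = 6 and 6). Levels are in CPM, each library size having been scaled by TMM so that a level is relative to the other genes of its library.

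Markers of fast muscle fibres dominated each group. The 9 fast-fibre genes, of which Myh4 was the most abundant over the 24 mice and Atp2a1 in sedentary controls, summed to 141200 ± 23230 CPM in sedentary controls (SD, n = 6), to 146400 ± 12750 in sedentary PBMT mice, to 188100 ± 15890 in fatigued controls and to 184000 ± 14710 in fatigued PBMT mice. The 7 slow-fibre genes, of which Myl3 was the most abundant in sedentary mice and Atp2a2 in fatigued mice, summed to 97.4 ± 17.4 CPM in sedentary controls, 94.9 ± 13.6 in sedentary PBMT mice, 102 ± 33.3 in fatigued controls and 129 ± 45.0 in fatigued PBMT mice. Ucp1, the marker of brown adipocytes, was 0 in sedentary controls, sedentary PBMT mice and fatigued controls. The 4 interstitial mesenchymal genes, led by Gsn, summed to 934 ± 111 CPM in sedentary controls, 739 ± 140 in sedentary PBMT mice, 1155 ± 266 in fatigued controls and 1191 ± 269 in fatigued PBMT mice. The 5 macrophage and myeloid genes, led by Lyz2, summed to 53.8 ± 20.9, 36.1 ± 9.45, 58.9 ± 15.9 and 61.6 ± 32.1 CPM in the same order of groups. The 3 keratinocyte genes, led by Krt10, were highest in sedentary PBMT replicate 4, at 20.96 CPM against a sedentary control mean of 2.75. The 4 tendon genes, led by Fmod, summed to 152 ± 38.4 CPM in sedentary controls, 156 ± 29.5 in sedentary PBMT mice, 306.5 ± 113 in fatigued controls and 362 ± 234 in fatigued PBMT mice, with the highest value, 815 CPM, in fatigued PBMT replicate 5. In bulk tissue, fewer cells of a type and less RNA per cell cannot be told apart, and the part of other cell types in the results was not tested.

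Sedentary control replicate 4 stood apart from the other libraries. Genes encoded in mitochondrial DNA took 3.25% of its counts, against 15.5 to 17.0% in the other sedentary controls, 13.9 to 17.1% in sedentary PBMT mice and 10.5 to 12.9% in fatigued mice. Its genes also differed from the sedentary control mean in step with their GC content (Spearman's rho 0.57 across genes), where the other sedentary controls had a rho of -0.36 to -0.01. Genes are not independent replicates, and these values of rho are descriptions. Fold changes of members named below are also given without this mouse where leaving it out turned their direction or moved them markedly.

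In sedentary control muscle the median member had 33.2 CPM, and members ranged from 0 to 188 CPM. As CPM per kilobase of exonic length, the median level was 13.6 and the range 0 to 104.6. The highest level per exonic length belonged to Mrps21, a small-subunit protein with a bacterial homologue, at 104.6 ± 9.60 (SD, n = 6). Mrpl12, the stalk protein that recruits translation factors and also binds mitochondrial RNA polymerase, followed at 92.6 ± 19.2. Mrpl2, which lines the catalytic centre, had 63.1 ± 4.88, Mrpl18 of the central protuberance had 59.7 ± 4.79, and the mitochondria-specific Mrpl42 had 51.1 ± 13.3. Mrps21 and Mrpl12 did not separate beyond their spread, nor did Mrpl2, Mrpl18 and Mrpl42. The lowest detected levels per exonic length were those of Mrps35 (2.39 ± 0.269), Mrps10 (2.47 ± 0.231), Mrpl33 (2.86 ± 0.763) and Mrps6 (3.46 ± 0.268). Long exonic unions lowered some of these values. Per kilobase of the principal transcript, an alternative scale chosen after seeing the data, Mrpl42 had the highest level at 282.5 and Mrpl33 and Mrps10 stood at 43.8 and 19.6, against a median of 22.8. Large-subunit members held 72.0% of the members' summed CPM in sedentary controls and small-subunit members 26.7%, with 6.15% from Mrpl42, 4.64% from Mrpl12 and 3.85% from Mrpl51.

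Mrpl53 (ENSMUSG00000030037, GRCm38 chr6:83109040-83109939), a mitochondria-specific large-subunit protein, had a count of 0 in all 24 libraries. A floor of 3 counts allowed up to 0.0437 to 0.0693 CPM, depending on the library, and covers counting error only. Of its exonic bases, 88.0% are shared on the same strand with the gene model Gm42688, which had 0.199 ± 0.128 CPM in sedentary controls, so a count of 0 does not show that the transcript is absent. Other members share exonic bases on the same strand with another gene, which a strand setting would not separate. The larger of these shares were 37.0% of Mrps34 with Nme3, which had a count of 0 in every library, 23.2% of Mrps18c with Gm43511, 19.9% and 10.4% of Mrps6 with Gm49711 and Slc5a3, and 15.4% of Mrps24 with Urgcp. Still others overlap genes on the opposite strand, and the larger overlaps are given. Nr2c2 covers 69.8% of the exonic bases of Mrps25, Mapk8ip3 covers 63.4% of those of Mrps34, Gcfc2 covers 36.0% of those of Mrpl19 and Twnk covers 33.4% of those of Mrpl43. Gm16279 covers 30.5% of those of Mrps18b, Rrnad1 covers 26.3% of those of Mrpl24 and 6430562O15Rik covers 24.2% of those of Mrps27. The libraries were directional, but the strand setting of the counting is not stated, so the levels of all these members are uncertain.

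The members varied little among mice of the same group. The median within-group SD of their log2 CPM was 0.12, from 0.06 for Mrps5 to 0.28 for Mrps36, against 0.23 over all 15108 genes tested. In the comparison of sedentary PBMT mice with controls, the median standard error of a member's log2 fold change was 0.08, against 0.12 over all genes tested.

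In sedentary muscle, which asks what the light does at rest, most members were lower after PBMT by a small amount, and no member passed the test. The summed level of the members was 2852 to 3353 CPM in the 6 controls, with a median of 2996, and 2523 to 3092 CPM in the 6 PBMT mice, with a median of 2862. The groups overlapped, with 3 of 6 PBMT mice below the lowest control and 5 of 6 below the control median. Controls averaged 3060 ± 192 CPM and PBMT mice 2828 ± 189 CPM (SD, n = 6 each), 7.58% below control, a difference of similar size to the spread between mice. Without sedentary control replicate 4 the control mean was 3026 ± 195 CPM (SD, n = 5). Of 77 members tested, 72 were lower after PBMT and the median of their log2 fold changes was -0.11, where 7150 of all 14177 genes tested, or 50.4%, were lower and the median was -0.0019.

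**Figure D1:**
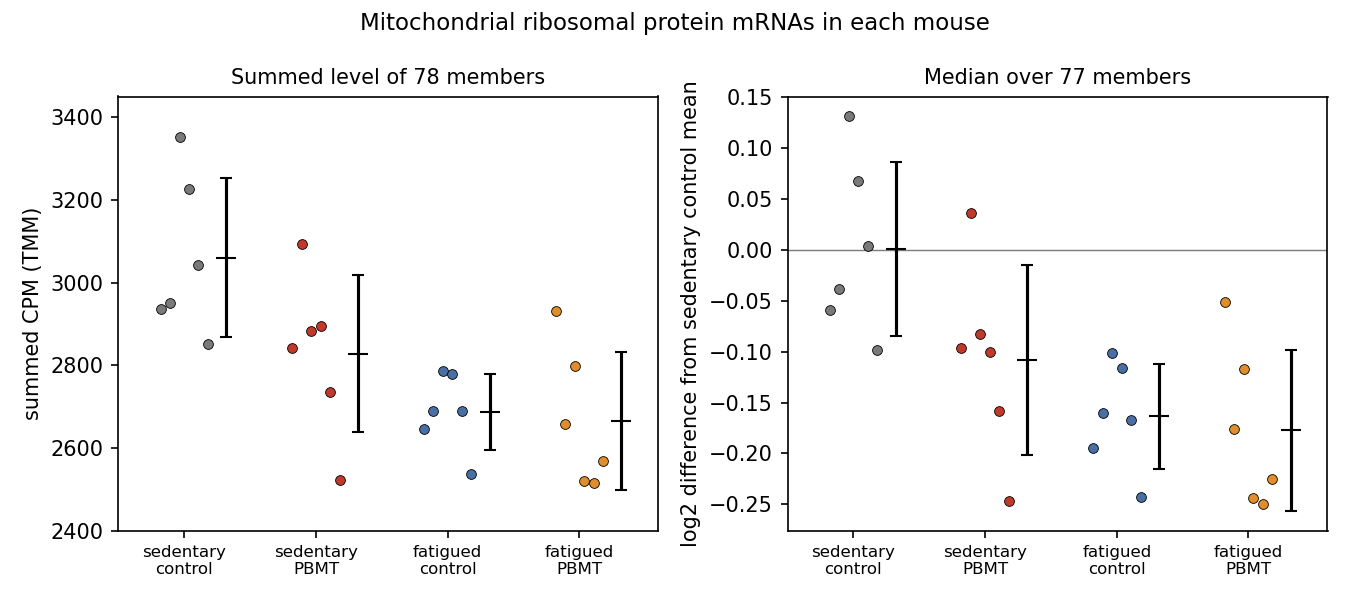
Left, summed level of the 78 members in CPM in each of the 24 mice by group, with bars for the mean and SD; right, the median over 77 members of the log2 difference from the sedentary control mean in each mouse. The 6 fatigued controls lie between 2537 and 2785 CPM, all below the lowest sedentary control at 2852 CPM.

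By edgeR with Benjamini-Hochberg adjustment, 0 of the 77 members were called in sedentary muscle, where 0.0282% of all genes tested were called, and DESeq2 and limma voom also called 0 members. The smallest adjusted p of a member was 0.609. At an unadjusted p under 0.05, 10 members were lower and 0 higher by edgeR, against 4.3% of all genes tested that were lower at that threshold, and DESeq2 gave 9 members and limma voom 16. The share of all genes at that threshold is not given for DESeq2, limma voom or the fits without a mouse. The 10 were Mrpl28, Mrpl46, Mrpl16, Mrps7, Mrps27, Mrpl12, Mrpl17, Mrpl57, Mrpl11 and Mrpl43, of which Mrps7, Mrps27, Mrpl17, Mrpl57 and Mrpl43 were chosen for naming after their values were seen. No member had groups that did not overlap, against 0.275% of all genes tested that were lower without overlap. The count of 10 rested on single mice. It became 2 without sedentary control replicate 3, 6 without sedentary control replicate 5 and 18 without sedentary control replicate 6. It became 6 without sedentary PBMT replicate 1, 21 without replicate 2, 4 without replicate 3, 5 without replicate 4, 3 without replicate 5 and 1 without replicate 6 of that group.

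Among the large-subunit members with a bacterial homologue, 29 of 30 were lower in sedentary PBMT mice (median log2 fold change -0.11). Mrpl28 (ENSMUSG00000024181, chr17:26123500-26126613), had 35.3 to 62.1 CPM in controls with a median of 42.2, and 36.0 to 40.2 CPM in PBMT mice with a median of 36.5. The 6 PBMT mice lay below the control median but within the control range, whose top was sedentary control replicate 4. The log2 fold change was -0.26 (SE 0.105, edgeR adjusted p = 0.609), and -0.15 without that mouse. The exact permutation test, two-sided, gave p = 0.0411 for Mrpl28 (n = 6 and 6).

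Mrpl16 (ENSMUSG00000024683, chr19:11770391-11774960), which lies near the site where aminoacyl-tRNA enters the catalytic centre, had 41.4 to 48.9 CPM in controls with a median of 43.9, and 36.8 to 42.1 CPM in PBMT mice with a median of 41.2. The groups overlapped only where the highest PBMT mice reached the lowest controls. Its log2 fold change was -0.15 (SE 0.0624, edgeR adjusted p = 0.633; exact permutation test, two-sided, p = 0.00649, n = 6 and 6). Mrpl12 (ENSMUSG00000039640, chr11:120484613-120489065) had 120.3 to 197 CPM in controls with a median of 128, and 87.5 to 143 CPM in PBMT mice with a median of 119.5. The ranges overlapped, with 4 of 6 PBMT mice below the lowest control, and the control at 197 CPM was again replicate 4. The log2 fold change of Mrpl12 was -0.28 (SE 0.123, edgeR adjusted p = 0.644; exact permutation test, two-sided, p = 0.0844, n = 6 and 6), and -0.17 without that mouse. Mrpl11, at the base of the same stalk, had 37.6 to 47.7 CPM in controls with a median of 43.6 and 36.1 to 41.8 CPM in PBMT mice with a median of 37.8. Its ranges also overlapped, with a log2 fold change of -0.15 (SE 0.0697, edgeR adjusted p = 0.648).

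The exception of this class was Mrpl32 (ENSMUSG00000015672, chr13:14608184-14613165), whose protein is matured by the m-AAA protease before it joins the subunit. It had 13.0 to 27.6 CPM in controls with a median of 24.1, and 22.4 to 28.0 CPM in PBMT mice with a median of 26.2. The value of 13.0 CPM came from sedentary control replicate 4, and the other controls lay within 23.8 to 27.6 CPM. The log2 fold change was 0.15 (SE 0.137, edgeR adjusted p = 0.759) with that mouse and 0.03 without it.

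Among the mitochondria-specific large-subunit members, 19 of the 20 tested were lower in sedentary PBMT mice (median log2 fold change -0.13). Mrpl46 (ENSMUSG00000030612, chr7:78775236-78783531) had 19.8 to 24.3 CPM in controls with a median of 22.5, and 17.5 to 22.7 CPM in PBMT mice with a median of 19.0. The ranges overlapped, with 5 of 6 PBMT mice below the lowest control. The log2 fold change was -0.19 (SE 0.0773, edgeR adjusted p = 0.609; exact permutation test, two-sided, p = 0.0216, n = 6 and 6). By edgeR on all mice, the member that was not lower was Mrpl42, with 92.5 to 227 CPM in controls (median 204) and 157 to 214 CPM in PBMT mice (median 196). The log2 fold change of Mrpl42 was 0.03 (SE 0.164, edgeR adjusted p = 0.967). Replicate 4 was again the lowest control, and the direction turned to -0.11 without that mouse, to -0.0047 without sedentary PBMT replicate 4 and to -0.0587 by limma voom. Mrpl58, a peptidyl-tRNA hydrolase that became part of the large subunit and can release stalled chains, had a log2 fold change of -0.09 (SE 0.0865, edgeR adjusted p = 0.773). It was -0.06 without sedentary control replicate 4, -0.15 without sedentary PBMT replicate 2 and -0.04 without sedentary PBMT replicate 6.

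Among the small-subunit members, 13 of 16 with a bacterial homologue and 10 of 10 particular to mitochondria were lower in sedentary PBMT mice, with median log2 fold changes of -0.05 and -0.12. Mrps7 (ENSMUSG00000046756, chr11:115603925-115608036), in the head of the small subunit, had 65.5 to 94.2 CPM in controls with a median of 71.8, and 58.2 to 69.6 CPM in PBMT mice with a median of 65.2. The ranges overlapped in their lower part, with a log2 fold change of -0.19 (SE 0.0810, edgeR adjusted p = 0.638; exact permutation test, two-sided, p = 0.0216, n = 6 and 6). Mrps27 (ENSMUSG00000041632, chr13:99344786-99415562), a pentatricopeptide-repeat protein that binds RNA, had 31.9 to 43.9 CPM in controls with a median of 33.8, and 27.7 to 33.2 CPM in PBMT mice with a median of 31.4. These ranges overlapped too, with 5 of 6 PBMT mice below the lowest control. The log2 fold change was -0.18 (SE 0.0778, edgeR adjusted p = 0.639; exact permutation test, two-sided, p = 0.0152, n = 6 and 6). Without sedentary control replicate 4, Mrps7 and Mrps27 each had a log2 fold change of -0.11.

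Members that were higher in sedentary PBMT mice did not pass the test either. Mrps2 had 14.9 to 19.6 CPM in controls and 15.8 to 19.7 CPM in PBMT mice, with medians of 17.6 and 18.6 and a log2 fold change of 0.07 (SE 0.0821, edgeR adjusted p = 0.816). Mrps5, at the channel where messenger RNA enters, had 33.8 to 37.1 CPM in controls and 33.3 to 37.4 CPM in PBMT mice, with medians of 35.3 and 37.1 and a log2 fold change of 0.04 (SE 0.0583, edgeR adjusted p = 0.854). The ranges of both genes overlapped almost fully, although for Mrps5 3 of 6 PBMT mice lay above the highest control and 1 below the lowest. Without sedentary control replicate 4 the log2 fold changes of Mrps2 and Mrps5 were 0.03 and 0.02. Mrps2 stood at 0.11 without sedentary control replicate 2 and Mrps5 at 0.07 without sedentary PBMT replicate 6. The paralogues Mrps18a, Mrps18b and Mrps18c, of which the protein of Mrps18a sits in the large subunit and the others in the small subunit, had 12.1, 10.5 and 8.53 CPM per kilobase of exonic length in sedentary controls. Their log2 fold changes were -0.07 (SE 0.0775), -0.12 (SE 0.0653) and -0.15 (SE 0.129), with edgeR adjusted p of 0.820, 0.665 and 0.756. Mrps18a stood at -0.01 without sedentary PBMT replicate 6 and Mrps18c at -0.07 without sedentary control replicate 3. Mrps36 had 19.98 to 52.1 CPM in controls, with the lowest value in replicate 4, and 32.7 to 46.8 CPM in PBMT mice. Its log2 fold change was -0.06 (SE 0.167, edgeR adjusted p = 0.938), which became -0.20 without that mouse and turned to 0.03 without sedentary control replicate 3.

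**Figure D2:**
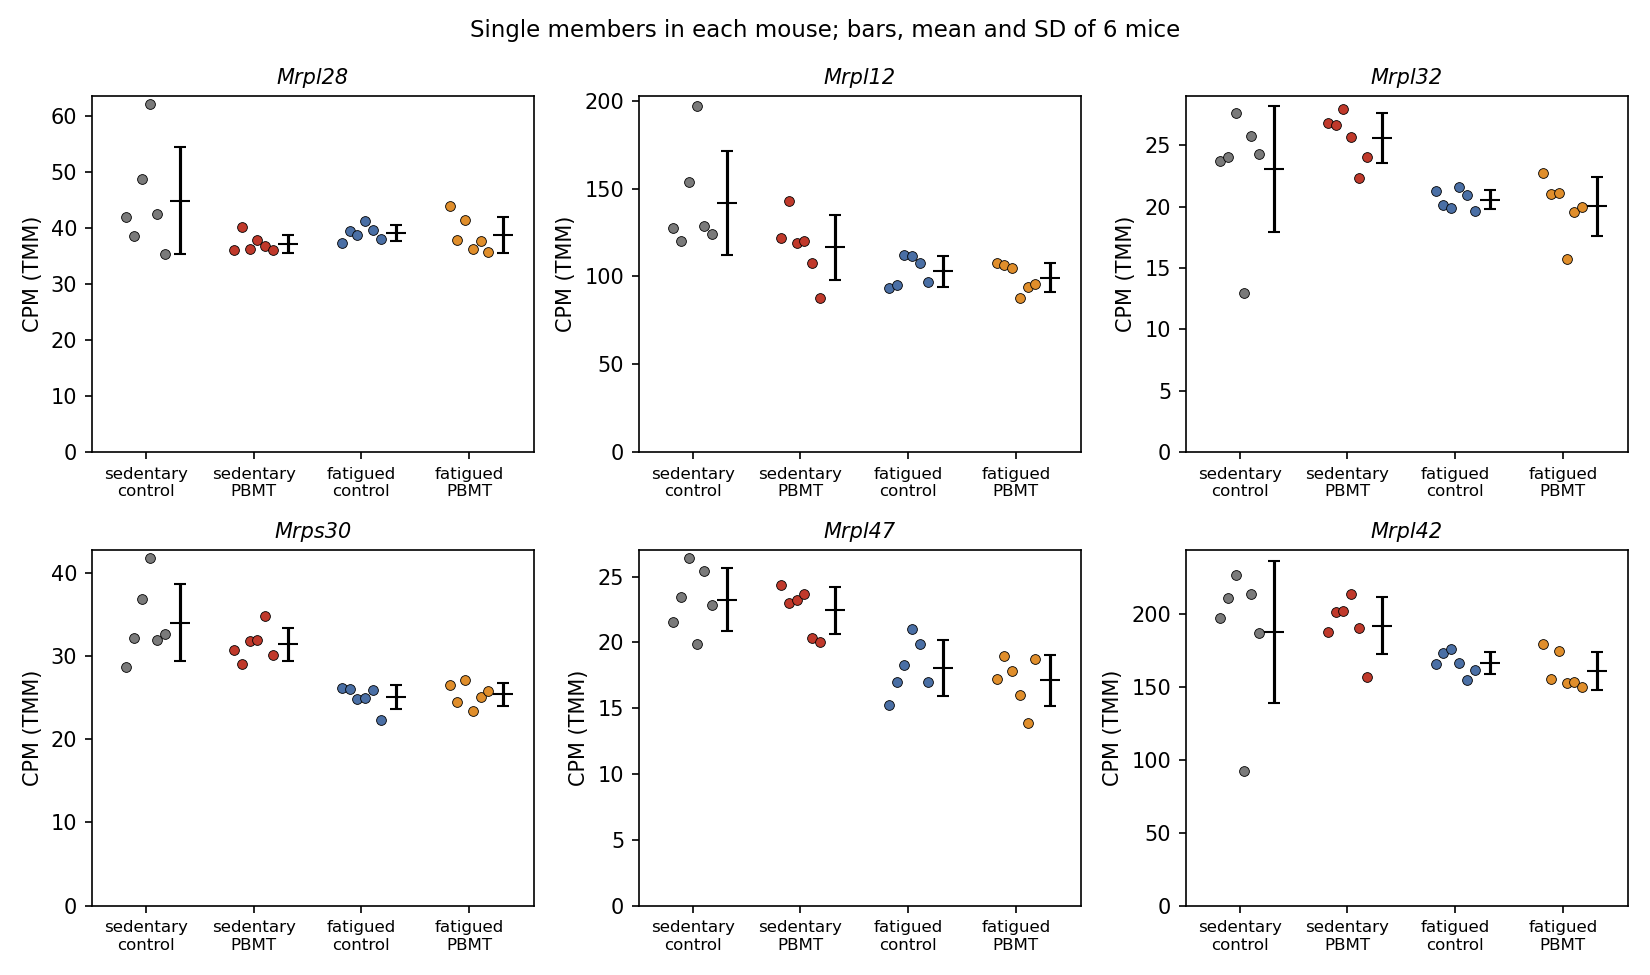
Level in CPM of Mrpl28, Mrpl12, Mrpl32, Mrps30, Mrpl47 and Mrpl42 in each mouse of the 4 groups, with bars for the mean and SD of 6 mice. Sedentary control replicate 4 is the highest control for Mrpl12 (197 CPM) and the lowest for Mrpl42 (92.5 CPM).

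The fold changes in sedentary muscle moved with transcript length. Across genes, Spearman's rho of the log2 fold change was 0.33 with transcript length and -0.31 with GC content, and members are short, with a median transcript length of 1866.5 bases against 3228 over all genes tested. Their median GC content was 49.8%, against 49.7%. With the length trend removed, the members' median log2 fold change in sedentary muscle was -0.04 and 56 of 77 were lower, and with the GC trend removed it was -0.09 and 70 were lower. Trends on principal transcript length, and on length with GC, were removed as alternatives chosen after seeing the data. They left medians of -0.05 and -0.06, with 54 and 57 members lower. Removing a trend can also move the median over all genes, which is not given for these fits. The counts of members below 0 after removal are therefore descriptions. The part of transcript length in the members' direction was not tested further.

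Apart from the rRNAs, other gene lists of mitochondrial translation had medians of the same sign in sedentary PBMT mice. Among mitoribosomal proteins with other symbols, 4 of 5 were lower (median log2 fold change -0.18), with the smallest p at Chchd1, a small-subunit protein (-0.21, SE 0.0693, edgeR adjusted p = 0.474). Of the translation factors, 13 of 17 were lower (median -0.06). Mtfmt, which formylates the initiator methionyl-tRNA, had 4.81 to 6.13 CPM in controls and 3.53 to 4.77 CPM in PBMT mice. Its groups did not overlap, and its log2 fold change was -0.37 (SE 0.112, edgeR adjusted p = 0.404; exact permutation test, two-sided, p = 0.00216, n = 6 and 6). Of the assembly and rRNA modification factors, 24 of 29 were lower (median -0.07), with the smallest p at Rbfa, a maturation factor of the small subunit (-0.23, edgeR adjusted p = 0.650, and -0.09 without sedentary control replicate 4). Of the aminoacyl-tRNA synthetases and amidotransferase subunits, 15 of 20 were lower (median -0.07), with the smallest p at Yars2 (-0.29, edgeR adjusted p = 0.515). Of the regulators of mitochondrial biogenesis and transcription, 9 of 15 were lower (median -0.02), with the smallest p at Tefm, an elongation factor of mitochondrial transcription (-0.18, edgeR adjusted p = 0.612). The mitochondrial rRNAs mt-Rnr1 and mt-Rnr2 had log2 fold changes of 0.24 and 0.19, which were 0.10 and 0.06 without sedentary control replicate 4, the mouse with the low share of counts from mitochondrial DNA. Levels of rRNA also depend on how polyadenylated RNA was selected. Cytosolic ribosomal proteins had 71 of 81 genes lower (median -0.08) and nuclear-encoded respiratory chain and ATP synthase genes had 79 of 83 lower (median -0.13). By edgeR, 0 genes of each of these lists were called. At an unadjusted p under 0.05 the lower genes numbered 2, 1, 0, 2 and 1 in the lists of mitochondrial translation in the order above, 0 of the rRNAs, 10 of the cytosolic ribosomal proteins and 15 of the respiratory genes. Of all genes tested, 4.3% were lower at that threshold.

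In fatigued muscle, where the light came ahead of exhausting exercise, the members showed no difference between PBMT and control that passed the test. In this comparison the light cannot be told apart from the longer run of PBMT mice. The members are described first by their sum. Their summed level was 2537 to 2785 CPM in the 6 controls, with a median of 2690, and 2516 to 2930 CPM in the 6 PBMT mice, with a median of 2613. The groups overlapped, with 2 of 6 PBMT mice below the lowest control and 2 above the highest, and means of 2688 ± 92.0 and 2665 ± 168 CPM (SD, n = 6 each). Of 77 members tested, 47 were lower after PBMT, and the median log2 fold change was -0.0087 against 0.0041 over all genes tested. The direction rested on single mice: without fatigued PBMT replicate 4 the median was 0.0077 and 33 members were lower, and without fatigued PBMT replicate 1 the median was -0.04 and 65 were lower. With the length trend removed the median was -0.04 with 68 members lower, and with the GC trend removed -0.04 with 64 lower, where the medians over all genes were -0.0205 and -0.0204. By edgeR 0 members were called, against 0% of all 14574 genes tested, and DESeq2 and limma voom called 0 members. At an unadjusted p under 0.05 there were 0 members by all of the 3 tools, against 1.58% of all genes tested in either direction by edgeR. No member had groups that did not overlap, against 0.0274% of all genes tested. The median log2 fold changes of the large-subunit classes were -0.01 for proteins with a bacterial homologue and 0.01 for those particular to mitochondria, and those of the small-subunit classes were -0.01 and -0.02.

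The members with the smallest p in fatigued muscle differed little between PBMT and control. Mrpl14, on the face of the large subunit that meets the small subunit, had 30.1 to 34.1 CPM in controls with a median of 33.0, and 31.2 to 39.7 CPM in PBMT mice with a median of 34.0. The ranges overlapped, with a log2 fold change of 0.08 (SE 0.0624). Mrpl49 had a log2 fold change of 0.07 (SE 0.0599) and Mrpl54 of 0.06 (SE 0.0684), and the value of Mrpl54 was -0.0025 without fatigued PBMT replicate 1. Among members that were lower, Mrps16 had 18.03 to 22.5 CPM in controls with a median of 19.0, and 16.1 to 21.9 CPM in PBMT mice with a median of 17.3. Its ranges overlapped as well, with 4 of 6 PBMT mice below the lowest control. The log2 fold change was -0.10 (SE 0.0794; exact permutation test, two-sided, p = 0.212, n = 6 and 6). Mrps31 and Mrps25 each had a log2 fold change of -0.07. Single mice moved these values. Without fatigued PBMT replicate 1, Mrpl14 stood at 0.03, Mrpl49 at 0.04 and Mrps16 at -0.17. Without fatigued control replicate 5, Mrps16 stood at -0.05, and without fatigued PBMT replicate 6, Mrps25 stood at -0.03. The edgeR adjusted p of each of these members was 1.00. Mrpl58 and Mrps36 had log2 fold changes of 0.05 and -0.06 in fatigued muscle, and Mrps18a, Mrps18b and Mrps18c of 0.04, -0.01 and -0.09. They were nearer 0 without a single mouse, at 0.006 for Mrpl58 without fatigued control replicate 6, -0.0094 for Mrps36 without fatigued PBMT replicate 5, 0.0059 for Mrps18a without fatigued PBMT replicate 1 and -0.04 for Mrps18c without fatigued control replicate 3. The direction of Mrps18b turned to between 0.0022 and 0.0251 without fatigued control replicate 1 or 2 or without fatigued PBMT replicate 2 or 5, and to 0.0019 by limma voom.

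The other lists, apart from the rRNAs, also had medians near 0 in fatigued muscle. Lower after PBMT were 3 of 5 mitoribosomal proteins with other symbols (median log2 fold change -0.01, smallest p at Aurkaip1, 0.04, and -0.0103 by limma voom), 12 of 17 translation factors (-0.02, smallest p at Pdf, the deformylase of new chains, -0.56, SE 0.3002) and 17 of 29 assembly factors (-0.02, smallest p at Mrm2, a methyltransferase of the large-subunit rRNA, -0.15). Of the synthetases 17 of 20 were lower (median -0.04), and the smallest p belonged to Lars2, which was higher (0.43, SE 0.219). Of the regulators 9 of 15 were lower (median -0.03), and the smallest p belonged to Myc, which was higher (0.49, SE 0.294). Single mice moved these values too, to 0.23 for Lars2 without fatigued PBMT replicate 6, to -0.35 for Pdf without fatigued control replicate 2, to -0.10 for Mrm2 without fatigued control replicate 3, to 0.35 for Myc without fatigued control replicate 4 and to 0.0015 for Aurkaip1 without fatigued PBMT replicate 1. Both mitochondrial rRNAs were lower (median -0.11). Cytosolic ribosomal proteins had 47 of 81 genes lower (median -0.01) and respiratory genes 76 of 83 (median -0.04). By edgeR, 0 genes of these lists were called and 0 had an unadjusted p under 0.05.

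The difference between the PBMT effects asks whether PBMT and control differed to another extent in fatigued than in sedentary muscle. The longer run of fatigued PBMT mice enters this contrast and cannot be told apart from the light. The difference was positive for 68 of 77 members, with a median of 0.12 on the log2 scale against 0.02 over all genes tested, and no member passed the test. The median was 0.0716 without sedentary PBMT replicate 6, and it was also smaller by limma voom, as given below. By edgeR 0 members were called, against 0.00662% of all 15108 genes tested, and DESeq2 and limma voom called 0 members. At an unadjusted p under 0.05 there were 3 of 77 members, all higher (Mrpl14, Mrpl11 and Mrpl4), a share near the 2.95% of all genes tested that were higher at that threshold. DESeq2 gave 3 members and limma voom 1, for which the shares of all genes are not given. Mrpl14 had a difference of 0.20 (SE 0.0859), made up of -0.12 in sedentary and 0.08 in fatigued muscle. Mrpl11 had a difference of 0.21 (SE 0.0945), from -0.15 and 0.05. Its value in fatigued muscle was 0.03 without fatigued PBMT replicate 1 and 0.09 without fatigued PBMT replicate 6. Mrpl4, near the tunnel through which new chains leave, had 36.8 to 54.1 CPM in sedentary controls, 33.0 to 43.2 in sedentary PBMT mice, 36.5 to 40.3 in fatigued controls and 37.5 to 41.5 in fatigued PBMT mice. The PBMT and control ranges of Mrpl4 overlapped in both arms, and its difference was 0.22 (SE 0.103). Its highest sedentary control was replicate 4, and without that mouse the difference was 0.15. The edgeR adjusted p of each of the 3 was 0.946. The most negative differences by p were those of Mrpl32 (-0.19), Mrps2 (-0.12) and Mrps5 (-0.04), which were -0.07, -0.08 and -0.02 without sedentary control replicate 4.

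The count of 3 became 0 without sedentary control replicate 3, sedentary PBMT replicates 1, 5 or 6, fatigued control replicate 6, or fatigued PBMT replicates 1 or 3. It became 1 without sedentary control replicate 5, fatigued control replicates 1 or 2, or fatigued PBMT replicate 2. It became 5 without fatigued PBMT replicates 5 or 6, 6 without sedentary control replicate 2, 9 without sedentary control replicate 6 and 10 without sedentary PBMT replicate 2. With the length trend removed, the members' median difference was 0.0082 and 42 of 77 were higher, and with the GC trend removed it was 0.0545 and 57 were higher. The median over all genes after removal, which can also move, is not given here.

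Between the arms, the members were lower in fatigued than in sedentary control muscle, a contrast in which exercise and sequencing project cannot be told apart. All of the 6 fatigued controls had a summed member level below the lowest sedentary control. Of 77 members, 73 were lower, and their log2 fold changes had a median of -0.18, against -0.01 over all genes tested. Across genes, Spearman's rho of the log2 fold change in this contrast was 0.23 with transcript length and 0.19 with GC content. By edgeR with an adjusted p under 0.05, 28 members, or 36.4%, fell and 0 rose, where 9.49% of all genes tested fell and 9.1% rose. DESeq2 called 25 members and limma voom 37, and edgeR with no filter on low counts called 11. The shares of all genes called lower in these settings are not given, and limma voom called more of all genes too. These counts are therefore descriptions. The 28 comprised 13 of 30 large-subunit members with a bacterial homologue, 7 of 20 large-subunit members particular to mitochondria, 3 of 16 small-subunit members with a bacterial homologue and 5 of 10 particular to mitochondria. The class medians were -0.19, -0.18, -0.10 and -0.21, and Mrps36, at -0.16, was not called, although without sedentary control replicate 4 it was called at -0.30 (edgeR adjusted p = 0.0142) and without sedentary control replicate 3 it stood at -0.06. For 11 members the 6 fatigued controls lay below the 6 sedentary controls without overlap, against 3.63% of all genes tested. These were Mrpl11, Mrpl12, Mrpl18, Mrpl33, Mrpl35, Mrpl41, Mrpl43, Mrps24, Mrps30, Mrps31 and Mrps35, some of them named after their values were seen. In this contrast the fast-fibre, interstitial mesenchymal and tendon genes given above had higher mean sums in fatigued controls, total counts were higher, and the share of counts from mitochondrial DNA was lower than in every sedentary control but replicate 4. The part of these in the members' fall was not tested. The number called was 11 without sedentary control replicate 3, 11 without fatigued control replicate 6 and 18 without fatigued control replicate 1. It was 33 without sedentary control replicate 4. All genes called, in either direction, numbered 2809 with all mice, 2078 without fatigued control replicate 6 and 3770 without sedentary control replicate 4.

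Mrps30 (ENSMUSG00000021731, chr13:118378381-118387252), a mitochondria-specific protein of the large subunit, had the smallest p. It had 28.7 to 41.8 CPM in sedentary controls with a median of 32.4, and 22.3 to 26.1 CPM in fatigued controls with a median of 25.4. The groups did not overlap, and Mrps30 fell by 0.44 on the log2 scale (SE 0.0726, edgeR adjusted p = 1.27e-04; exact permutation test, two-sided, p = 0.00216, n = 6 and 6). Without sedentary control replicate 4 its log2 fold change was -0.38. Mrpl11 (ENSMUSG00000024902, chr19:4962147-4966999) had 31.9 to 36.2 CPM in fatigued controls, all below the lowest sedentary control at 37.6 CPM. Its log2 fold change was -0.32 (SE 0.0669, edgeR adjusted p = 0.00131; exact permutation test, two-sided, p = 0.00216, n = 6 and 6). Mrpl12 had 93.4 to 112 CPM in fatigued controls with a median of 102, again without overlap. Its log2 fold change was -0.46 (SE 0.109, edgeR adjusted p = 0.00399), and -0.35 without sedentary control replicate 4. Mrpl20 (ENSMUSG00000029066, chr4:155802878-155809975), whose bacterial homologue acts early in large-subunit assembly, had 16.4 to 28.2 CPM in sedentary controls with a median of 24.2 and 16.4 to 18.9 CPM in fatigued controls with a median of 17.5. Sedentary control replicate 4, at 16.4 CPM, lay with the lowest fatigued control, and the log2 fold change of Mrpl20 was -0.44 (SE 0.0965, edgeR adjusted p = 0.00216) and -0.53 without that mouse. Mrpl1 (ENSMUSG00000029486, chr5:96209493-96266727), of the stalk where spent tRNA leaves, had 30.9 to 41.4 CPM in sedentary controls with a median of 39.3 and 29.9 to 32.8 CPM in fatigued controls with a median of 30.7. Sedentary control replicate 4, at 30.9 CPM, was the mouse that overlapped, and the log2 fold change was -0.30 (SE 0.0661, edgeR adjusted p = 0.00253), and -0.36 without that mouse.

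In the mice given PBMT, which are different animals, 60 of 77 members were lower in fatigued than in sedentary muscle, and the median over members was -0.06 on the log2 scale, against 0.0021 over all genes tested. Without fatigued PBMT replicate 4 the median was -0.0371 with 50 members lower, and without sedentary PBMT replicate 6 it was -0.0863 with 64 lower. With the GC trend removed the members' median was -0.155 with 66 lower, and with the length trend removed it was -0.1173 with 62 lower, where the medians over all genes were -0.0664 and -0.0632. By edgeR 8 members, or 10.4%, fell and 0 rose, where 12.7% of all genes tested fell and 14.1% rose. The members' share called lower was thus below that of all genes. DESeq2 called 7 members and limma voom 13, for which the shares of all genes called lower are not given. The 8 were Mrpl47, Mrpl1, Mrps30, Mrpl20, Mrps22, Mrpl32, Mrpl40 and Mrpl30, of which the last 3 were named after their values were seen. All of them but Mrpl32 were also among the 28 of the control mice, which makes 7 called in both contrasts. The share of all genes called lower in both is not given, so this count is a description and not a result particular to the members. For 4 of the 77 members (Mrpl1, Mrpl47, Mrps22 and Mrps30) the groups did not overlap, a share close to the 5.2% of all genes tested. Neither the calls nor the lack of overlap in PBMT mice is a result particular to the members. The number called was 5 without sedentary PBMT replicate 1, sedentary PBMT replicate 3 or fatigued PBMT replicate 4. It was 15 without sedentary control replicate 4, which is not in either of these groups but is in the fit, and 12 without sedentary PBMT replicate 6. All genes called, in either direction, numbered 4051 with all mice, 3245 without sedentary PBMT replicate 1 and 4768 without sedentary control replicate 4. How far these contrasts differ for a member is the difference between the PBMT effects given above.

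**Figure D3:**
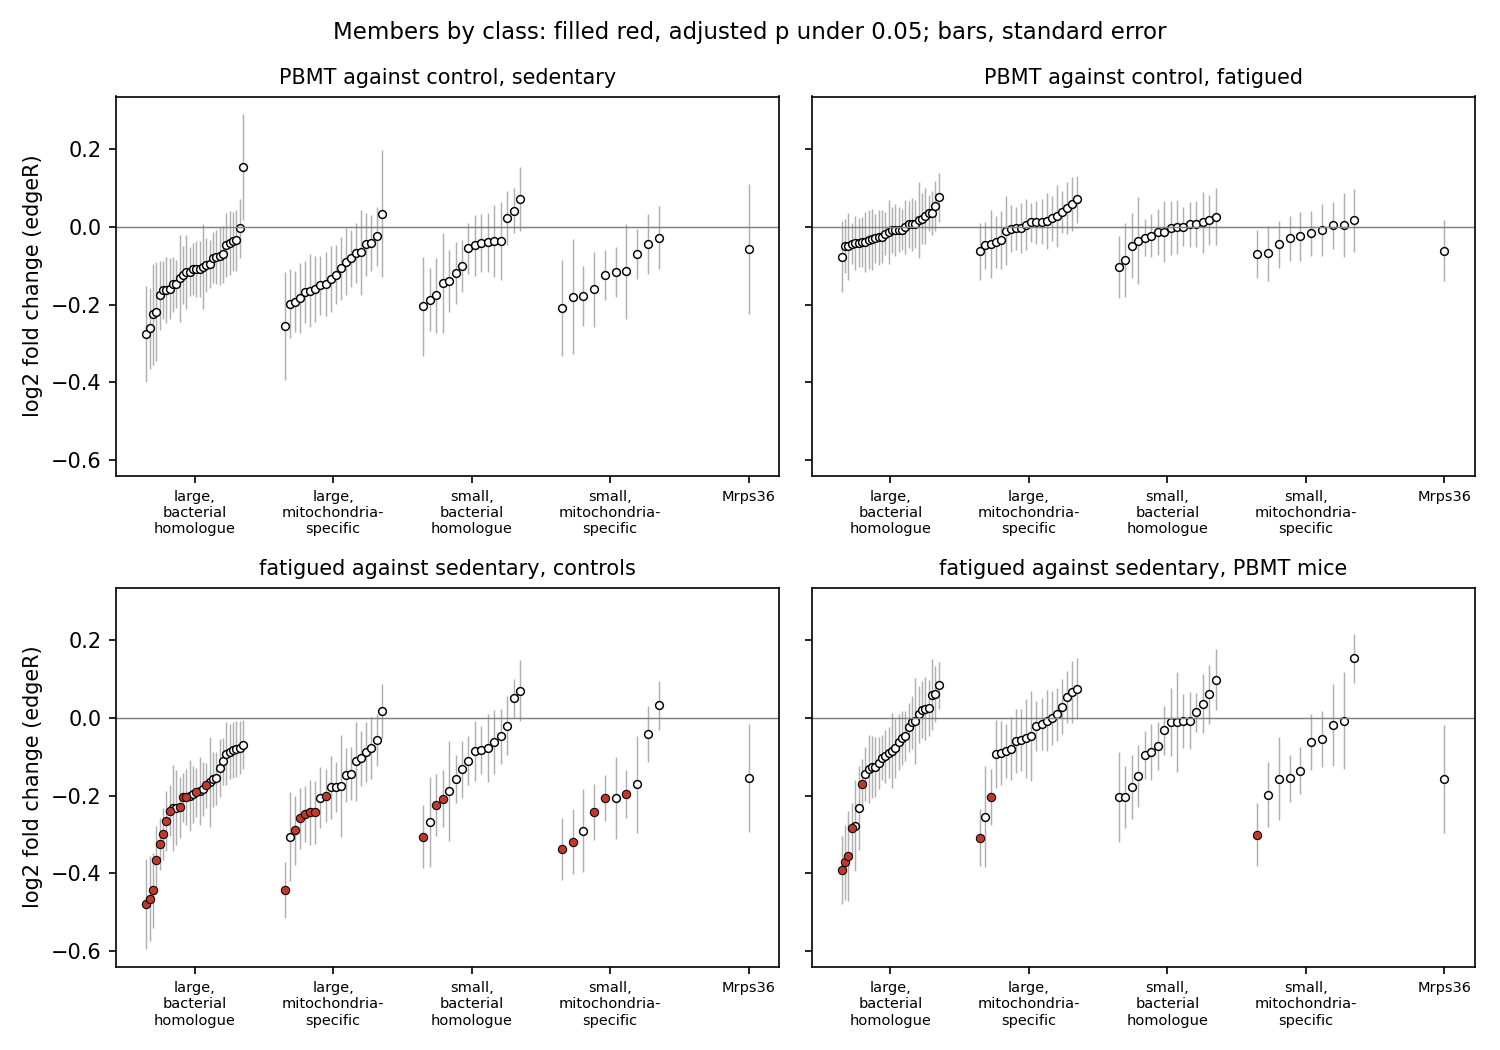
Log2 fold change of each of the 77 members tested, by class, for PBMT against control in sedentary and in fatigued muscle and for fatigued against sedentary muscle in controls and in PBMT mice, with bars for the SE and red filled points for an adjusted p under 0.05. Filled points number 0 and 0 in the PBMT panels, and 28 and 8 in the others, all below 0. The 28 are 36.4% of the members, where 9.49% of all genes tested were called lower. The 8 are 10.4%, where 12.7% of all genes tested were called lower.

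Mrpl47 (ENSMUSG00000037531, chr3:32725397-32737605), next to the exit of the polypeptide tunnel, had the smallest p in the PBMT mice. It had 20.04 to 24.4 CPM in sedentary PBMT mice with a median of 23.1, and 13.9 to 19.0 CPM in fatigued PBMT mice with a median of 17.5. The groups did not overlap, and Mrpl47 fell by 0.39 on the log2 scale (SE 0.0872, edgeR adjusted p = 0.00165; exact permutation test, two-sided, p = 0.00216, n = 6 and 6). In controls its log2 fold change was -0.37 (SE 0.0872, edgeR adjusted p = 0.00463). Mrps30 had 29.1 to 34.9 CPM in sedentary PBMT mice with a median of 31.3 and 23.4 to 27.1 CPM in fatigued PBMT mice with a median of 25.4, again without overlap. Its log2 fold change was -0.31 (SE 0.0725, edgeR adjusted p = 0.00263). Mrps22 (ENSMUSG00000032459, chr9:98588730-98601660), a mitochondria-specific protein of the small subunit, had 17.4 to 20.04 CPM in sedentary PBMT mice with a median of 18.1 and 13.9 to 16.6 CPM in fatigued PBMT mice with a median of 14.9. These groups did not overlap either, and the log2 fold change was -0.30 (edgeR adjusted p = 0.00703). Mrpl1 had 35.6 to 39.5 CPM in sedentary PBMT mice and 28.2 to 35.5 CPM in fatigued PBMT mice, ranges that nearly touched. Its log2 fold change was -0.28 (edgeR adjusted p = 0.00236). Mrpl20 had 18.9 to 24.5 CPM and 14.5 to 19.5 CPM in the same groups, which overlapped at their edges, with a log2 fold change of -0.37 (edgeR adjusted p = 0.00564). Mrps30, Mrpl11, Mrpl20, Mrpl1 and Mrpl12 in controls, and Mrpl47, Mrpl1, Mrps30, Mrpl20 and Mrps22 in PBMT mice, were called in each of 24 fits that left out a mouse. The 24 include fits without a mouse of the groups not compared, which is in the fit but not in the contrast. These genes were also picked for their small p in the same data.

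Between the arms, genes of the other lists were called as well. Chchd1 had 44.7 to 53.2 CPM in sedentary controls and 31.8 to 35.9 CPM in fatigued controls. Its groups did not overlap, and its log2 fold change was -0.49 (SE 0.0668, edgeR adjusted p = 1.52e-05), and -0.31 in PBMT mice (edgeR adjusted p = 0.00109). In controls, 1 of 5 mitoribosomal proteins with other symbols, 4 of 17 translation factors, 6 of 29 assembly factors and 6 of 20 synthetases fell, and 0 of these rose, beside 9.49% of all genes tested that fell and 9.1% that rose. Of the 15 regulators 4 fell and 2 rose, and of the rRNAs 0 were called. Tfam, which packages mitochondrial DNA, had a log2 fold change of -0.23 (SE 0.0479, edgeR adjusted p = 0.00154), and Ppargc1a, a coactivator that drives mitochondrial biogenesis and responds to exercise, of 2.10 (SE 0.343, edgeR adjusted p = 2.29e-04). Ppargc1a had 30.9 to 43.9 CPM in sedentary controls and 52.2 to 260.9 CPM in fatigued controls, groups that did not overlap. Tfam and Ppargc1a were chosen after their values were seen, and most other called genes of these lists are counted here without being named. Respiratory chain and ATP synthase genes had 48 of 83 called lower (median -0.29) and cytosolic ribosomal proteins 15 of 82 (median -0.10). In PBMT mice these counts were 29 of 83 (median -0.19), and 8 lower with 1 higher of 82 (median 0.01). In PBMT mice 1 of 5 mitoribosomal proteins with other symbols, 3 of 17 translation factors and 5 of 29 assembly factors fell, where 12.7% of all genes tested fell and 14.1% rose. Of the 20 synthetases 6 fell and 1 rose, and of the regulators 5 fell and 3 rose. The lists are short, and whether their shares differ from those of all genes was not tested. mt-Rnr2 was lower at -0.37 (edgeR adjusted p = 0.0483), a call that held in 5 of 24 fits that left out a mouse, while the log2 fold change lay between -0.41 and -0.31 in all of them. The call held in the fits without sedentary control replicate 4 or 5, sedentary PBMT replicate 2, or fatigued control replicate 3 or 5, and the highest adjusted p of the others was 0.129, without sedentary PBMT replicate 5.

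The promoters of the members were searched for motifs of factors known to act on genes of mitochondrial function. RefSeq windows of GRCm38.p6, from 250 bases before to 50 after the transcription start, were found for 69 of 78 members, in 75 windows. They were missing for Mrpl13, Mrpl15, Mrpl19, Mrpl38, Mrpl4, Mrpl54, Mrps28, Mrps34 and Mrps35. On either strand, CCGGAAG (the core bound by ETS factors such as GABPA) stood in 34.7% of member windows and 8.86% of all 32851 windows. It stood in 34.6% of the windows of cytosolic ribosomal proteins and 22.4% of those of respiratory genes. CGCNTGCGC, a form of the NRF1 motif, stood in 21.3% of member windows and 6.25% of all, with 12.8% of cytosolic ribosomal and 28.9% of respiratory windows. CGCATGCG, which overlaps it, stood in 9.33% of member windows and 1.87% of all, with 3.85% of cytosolic ribosomal and 13.2% of respiratory windows. AAGATGGC (YY1) stood in 16% of member windows and 2.75% of all, with 11.5% of cytosolic ribosomal and 13.2% of respiratory windows, and TCAAGGTCA (ERR) in 0% and 0.423%. At least 1 of these 5 motifs stood in 44 of 75 member windows, or 58.7%, against 16.4% of all windows. CACGTG stood in 9.33% of member windows and 7.15% of all, CCAAT in 40.0% and 37.4%, and TATAAA in 6.67% and 13.6%. The GC content was 58.7% in member windows and 52.7% in all windows, a difference that the shares of motifs do not take into account. A match is a description of the letters and not a binding site.

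The windows of 4 members are shown because their genes carried results above and each holds a different arrangement of matches, which are in capitals. They are Mrpl12 (chr11:120484387-120484686, plus strand), with CGCNTGCGC, and Mrps22 (chr9:98601630-98601929, minus strand), with CCGGAAG. The others are Mrps27 (chr13:99344536-99344835, plus strand), with the reverse complement of CCGGAAG and with AAGATGGC, and Mrpl32 (chr13:14612988-14613287, minus strand), with the reverse complement of AAGATGGC and overlapping matches to CGCATGCG and CGCNTGCGC at more than a single place. Each reads 5′ to 3′ on the strand of its gene, from RefSeq GRCm38.p6.
Mrpl12: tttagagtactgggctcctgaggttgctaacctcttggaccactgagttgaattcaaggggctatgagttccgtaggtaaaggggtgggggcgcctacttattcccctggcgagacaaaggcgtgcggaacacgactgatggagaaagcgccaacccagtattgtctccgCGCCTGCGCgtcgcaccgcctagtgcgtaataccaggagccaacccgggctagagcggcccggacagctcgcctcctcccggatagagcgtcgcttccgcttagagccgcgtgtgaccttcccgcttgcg
Mrps22: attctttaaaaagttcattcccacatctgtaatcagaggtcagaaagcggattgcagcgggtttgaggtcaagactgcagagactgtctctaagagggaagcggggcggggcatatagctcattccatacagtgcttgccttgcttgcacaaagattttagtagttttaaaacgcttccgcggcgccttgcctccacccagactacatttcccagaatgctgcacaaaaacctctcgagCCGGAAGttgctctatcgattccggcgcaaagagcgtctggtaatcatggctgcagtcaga
Mrps27: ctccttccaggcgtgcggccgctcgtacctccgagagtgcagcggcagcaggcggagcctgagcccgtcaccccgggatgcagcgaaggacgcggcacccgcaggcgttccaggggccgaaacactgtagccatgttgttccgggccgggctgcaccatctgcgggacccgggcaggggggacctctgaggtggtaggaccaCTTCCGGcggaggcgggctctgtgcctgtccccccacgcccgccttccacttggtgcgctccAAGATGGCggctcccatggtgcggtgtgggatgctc
Mrpl32: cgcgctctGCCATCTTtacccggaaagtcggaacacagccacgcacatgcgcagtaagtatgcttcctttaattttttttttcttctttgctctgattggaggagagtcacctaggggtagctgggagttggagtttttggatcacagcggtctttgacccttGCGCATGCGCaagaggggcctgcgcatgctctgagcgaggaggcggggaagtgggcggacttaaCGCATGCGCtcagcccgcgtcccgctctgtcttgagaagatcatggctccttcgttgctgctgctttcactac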

How the data were processed

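The deposited files hold a whole-number count per gene, made by the authors, for each of 24 libraries. The submitters' notes name Trimmomatic, STAR 2.7.1a, Picard 2.20.4, StringTie 2.0.4, featureCounts 1.6.0 and HTSeq with GRCm38, without the role or order of each tool, and do not state the strand setting, the annotation release or whether reads or pairs were counted. Symbols and positions came from GENCODE M21, which held 55227 of the 55487 gene identifiers. Members and lists were chosen with earlier results of these data known. Symbols of the fixed lists not found were C12orf65, Mtrfr, Mtres1 and Wbscr16.

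Counts were fitted in R 4.3.3 with edgeR 4.0.16 (TMM, filterByExpr with a minimum count of 10, robust quasi-likelihood). The p-values of each comparison were adjusted over its tested genes (Benjamini-Hochberg), with a threshold of 0.05. Each PBMT comparison used its own 12 libraries, and the difference and the fatigued-against-sedentary contrasts used all 24. Log2 CPM used a prior count of 2. Exact permutation tests of 6 against 6 mice, two-sided, cannot go below p = 0.00216. Groups that do not overlap give that value, so it adds nothing to the lack of overlap. Permutation p-values of genes are not adjusted for the number of genes, and the genes were picked from the same data. A library pair check found no duplicates (lowest chi-square per degree of freedom 11.5 over 276 pairs). The procedure was tested on simulated data.

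Named members were those past the threshold (the 5 with the smallest p per direction between arms), the 3 with the smallest p per direction in the other comparisons, members whose groups did not overlap, the 5 highest and 5 lowest per exonic length, members below the filter, Mrps18a, Mrps18b, Mrps18c, Mrpl12, Mrps36 and Mrpl58. From other lists the rule fixed beforehand took genes past the threshold or, failing that, the gene with the smallest p. Between the arms this was not followed: most called genes of other lists were counted but not named, and Tfam and Ppargc1a were picked after their values were seen.

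Alternatives were DESeq2 1.42.0, limma 3.58.1 voom with quality weights, DESeq2 size factors in edgeR, no filter, a minimum count of 10 in every library, a replicate block, all 24 mice in a single model, removal of length or GC trends by loess (span 0.3) and leaving out each mouse.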

Additional observations from a re-analysis of the deposited data

Results flagged for a closer look

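In 160 groups of 6 mice (34 named members and other measures), the highest or lowest mouse was compared with the rest by its gap to the nearest mouse as a share of the group's range. The gap passed the 95% limit for 6 mice in 12 groups, where chance passes about 1 in 20 groups, or 8 here. Sedentary control replicate 4 accounted for 5 of the 12. It was the lowest of its group for Mrpl1 (30.9 CPM against 38.1 to 41.4 in the others, gap share 0.683), Mrpl32 (13.0 against 23.8 to 27.6, gap share 0.736), Mrpl42 (92.5 against 187 to 227, gap share 0.705) and Mrps36 (19.98 against 40.9 to 52.1, gap share 0.651), and for the share of counts from mitochondrial DNA (3.25% against 15.5 to 17.0%, gap share 0.896). The cause was not tested.

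The other mice belonged to different groups. Mrpl2 was lowest in sedentary PBMT replicate 6 (57.7 CPM against 69.7 to 72.1, gap share 0.838), as was Mrps5 (33.3 against 35.8 to 37.4, gap share 0.6253). Mrps35 was highest in sedentary control replicate 3 (25.1 against 18.8 to 20.96, gap share 0.651). Mrpl54 was highest in fatigued PBMT replicate 1 (31.4 against 23.9 to 25.9, gap share 0.739). Mrps16 was highest in fatigued control replicate 5 (22.5 against 18.03 to 19.1, gap share 0.754). Fatigued control replicate 6 was lowest for Mrpl58 (18.7 against 21.7 to 23.4, gap share 0.640) and Mrps30 (22.3 against 24.8 to 26.1, gap share 0.658).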

How the results depend on the processing

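The members' median kept its sign in each comparison under the alternatives that keep all mice, and 0 members were called in both PBMT comparisons and in their difference under the alternatives with a test, leaving out single mice included. In sedentary muscle the number of all genes called was 4 and became 16 with no filter, 60 with DESeq2, 50 with limma voom and 1 with all 24 mice in a single model, where the members at an unadjusted p under 0.05 went from 10 to 19. In fatigued muscle it was 0 and became 2 with DESeq2. The members' median difference between the PBMT effects was 0.12 and became 0.0082 with the length trend removed, and the members higher went from 68 to 42. With principal transcript length these values were 0.0068 and 41, and with length and GC trends removed together 0.02 and 43, both alternatives chosen after seeing the data. The median difference was 0.0545 with the GC trend removed and 0.0694 with limma voom. For the difference, medians over all genes after removal of a trend are not given. Members called lower in fatigued controls went from 28 to 11 with no filter, and all genes called from 2809 to 4945 with limma voom. In PBMT mice the members called went from 8 to 13 with limma voom, and the members' median from -0.06 to -0.155 with the GC trend removed and -0.1173 with the length trend removed. Removing a trend also lowered the median over all genes in that contrast, as given above, so part of these moves is not particular to the members. The median level per exonic length of 13.6 became 22.77 per principal transcript length. Apart from the trends and lengths, whose removal or change is the alternative itself, the cause was not tested. The fold changes of genes given in the text were recomputed 1490 times, where the alternative had a test. Of these, 1456 kept their direction and side of the threshold, 21 no longer passed it, 2 newly passed it and 11 changed direction. All of the 21 were mt-Rnr2 and both of the 2 were Mrps36, in fits that left out a mouse and also in alternatives that keep all mice. Limma voom turned Mrpl42 in sedentary muscle to -0.0587, and in fatigued muscle Aurkaip1 to -0.0103 and Mrps18b to 0.0019. Over the mice left out, the values that changed direction ranged from -0.109 to 0.0917 for Mrpl42 and from -0.1995 to 0.0259 for Mrps36 in sedentary muscle, and from -0.0488 to 0.0251 for Mrps18b and from -0.0025 to 0.08 for Mrpl54 in fatigued muscle.

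With the replicate number of the labels as a block, the genes called were 11 in sedentary and 1 in fatigued muscle and 1 for the difference, with 0 members called in each. The members' medians with the block were -0.1102, -0.0107 and 0.1077. The pairing by number had correlations of -0.0715 to 0.0664 in sedentary and -0.0847 to 0.325 in fatigued muscle, and the own number was the best match for 1 of 6 and 3 of 6 mice. Whether the numbers mark pairs, which the labels do not say, was not tested.

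Leaving out each mouse in turn gave, in sedentary muscle, 2 to 20 genes called, 0 to 0 members called, a members' median of -0.1363 to -0.0767 and 66 to 73 members lower. In fatigued muscle it gave 0 to 0 genes, 0 to 0 members, -0.0389 to 0.0077 and 33 to 65. For the difference it gave 1 to 3 genes, 0 to 0 members, 0.0716 to 0.131 and 59 to 72 members higher. For fatigued against sedentary controls it gave 2078 to 3770 genes, 11 to 33 members, -0.1994 to -0.1479 and 70 to 74 members lower. In PBMT mice it gave 3245 to 4768 genes, 5 to 15 members, -0.0863 to -0.0371 and 50 to 64 members lower.

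With 6 mice a group, differences in members smaller than the spread between mice were not detectable, and a p that misses the threshold does not show that levels were equal. Counts of members that overlap other genes are uncertain while the strand setting is unknown. Differences between arms cannot be separated from the sequencing project. RNA levels say nothing of protein or of assembled ribosomes.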
